A study of Mus musculus with 4 samples.

Results

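The BCL2 family genes described here are 10 genes of cell survival and death, of which 9 could be measured among the 19938 genes with a value. They were taken by name, and each was read from a probe set that the platform annotation gives to that gene alone. These 9 genes had 1 such probe set each, and Bax was not analysed here. The arrays came from 2 groups of C57BL/6 mice, with 2 arrays in each. One held spleen CD4+ lymphoma cells of mice with a homozygous gene trap in Tet2, the gene of an enzyme that oxidises methylated cytosine in DNA, and the other held CD4+ splenocytes of wild type controls. A trap cassette inserted into a gene cuts its transcript short, and per the labels both Tet2 copies carried it in the lymphoma group alone. Cells of both groups were collected with a CD4 antibody on magnetic columns after red cell lysis, and 1 array was run per sample. The labels name neither age nor sex, nor say that the 2 samples of a group came from different animals, so the p-values cover only the spread between these samples, which may be technical. The Tet2 gene trap and malignancy go together in this design and cannot be told apart. Tet2 itself had 596 and 399 in lymphoma, against 980 and 1016 in wild type cells (log2 difference -1.03, SE 0.24, adjusted p = 0.077 in limma). The difference passed at -1.32 once the first lymphoma array was dropped (adjusted p = 0.0016), a setting in which 1732 genes were called, and it was -0.74 once the second was (adjusted p = 0.082). It did not pass with either wild type array dropped (0.35 and 0.41). Where the trap lies relative to the probes is not stated in the labels, so this is no full check of the genotype.

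The BCL2 family decides whether the outer mitochondrial membrane is opened, the step that commits a cell to the intrinsic form of apoptosis. BAX and BAK form the pores, the survival proteins BCL2, BCL-XL and MCL1 hold them in check, and the BH3-only proteins BIM, BMF, PUMA, BID and NOXA bind the survival proteins or activate the pore formers when growth factors are lost or DNA is damaged. In T cells, cytokines such as interleukin 7 maintain BCL2, and BIM removes self-reactive thymocytes and ends immune responses.

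One of the 9 genes changed past the threshold, and it was a death gene. Bcl2l11, which encodes BIM, was 2.25-fold lower in lymphoma (log2 difference of lymphoma minus wild type -1.17, SE 0.17, adjusted p = 0.020), and 0 of 9 rose. The threshold was an adjusted p under 0.05 in limma, with Benjamini-Hochberg adjustment over all 19938 genes. At this threshold 4.27% of all genes were called, 1.82% higher and 2.46% lower in lymphoma. With 9 genes, 1 call is too few to set this share apart from the background. At an unadjusted p under 0.05 there were 3 members, Bcl2l11, Bmf and Bcl2, against 15.6% of all genes. The median difference of the 9 members was 0.15 and that of all genes was -0.04.

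Because Bcl2l11 carried the only call, the promoter window in which its sequence holds a FOXO motif is shown, together with the matching window of Bbc3, another BH3-only gene. FOXO factors are transcription factors that growth factor signalling keeps out of the nucleus, and both genes are known FOXO targets. The windows run from 250 bases before to 50 bases after an annotated transcript start, on the strand of the gene, 5′ to 3′, from RefSeq on GRCm38.p6. Capitals mark the FOXO motif GTAAACA or its reverse complement TGTTTAC, searched on both strands. It is 1 of several motifs searched, and it and the windows shown were picked after the values and the matches of all these motifs had been seen.
Bcl2l11 (chr2:128125788-128126087, plus strand): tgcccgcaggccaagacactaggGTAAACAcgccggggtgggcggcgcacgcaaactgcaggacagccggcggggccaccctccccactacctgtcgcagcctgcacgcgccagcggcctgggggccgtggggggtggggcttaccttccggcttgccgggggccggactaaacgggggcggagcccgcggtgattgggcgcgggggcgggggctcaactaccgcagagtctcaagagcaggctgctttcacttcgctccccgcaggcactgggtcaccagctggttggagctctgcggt
Bbc3 (chr7:16310011-16310310, plus strand): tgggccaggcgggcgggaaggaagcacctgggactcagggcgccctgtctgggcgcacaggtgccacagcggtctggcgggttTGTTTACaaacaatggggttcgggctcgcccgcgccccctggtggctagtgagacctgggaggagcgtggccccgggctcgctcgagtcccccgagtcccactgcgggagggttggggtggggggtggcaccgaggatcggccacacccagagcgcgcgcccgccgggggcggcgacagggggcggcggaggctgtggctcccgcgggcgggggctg

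The match in Bcl2l11 began 227 bases before the start site, and the other of its 2 windows held none. The match in Bbc3 began 167 bases before the start site and lay in 1 of 3 windows. Windows were listed for 8 of the 9 measured genes, 15 in all, and 2 of the 15 held the motif, both shown here. Of all 32851 windows 3.65% held it. A match is a stretch of letters and was not tested as a binding site. Of the genes with a match, Bcl2l11 fell, and Bbc3 had a log2 difference of 0.15 (SE 0.18, adjusted p = 0.81). The difference between the genes was not tested.

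Another 14 motifs were searched on both strands of the same windows, and each is given with its share of all windows. No member window held the CREB motif TGACGTCA (1.79%), the TATA box TATAAA (13.6%), the STAT motif TTCNNNGAA (8.30%), the AP-1 motif TGANTCA (7.81%) or the E2F motifs TTTGGCGC (0.514%) and TTTCCCGC (1.07%). The E-box CACGTG (7.15%) lay in 1 window, of Bbc3, and the ETS motif ACCGGAAGT (1.10%) in 1 window, of Bcl2l1. The shorter ETS motif CCGGAAG (8.86%), which lies within the longer one, was in 3 member windows. CATG (61.1%), 1 form of the core of the p53 motif, was in 2, and other forms of that core were not searched. The short CREB site TGACG (20.8%), part of the full CREB motif, was in 4 member windows and the CCAAT box CCAAT (37.4%) in 5. AAACA (50.5%), which lies within the FOXO motif, was in 8 and the GC box GGGCGG (35.7%) in 9. The motif of NRF1 was also looked for, and its values are not used here.

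**Figure D1:**
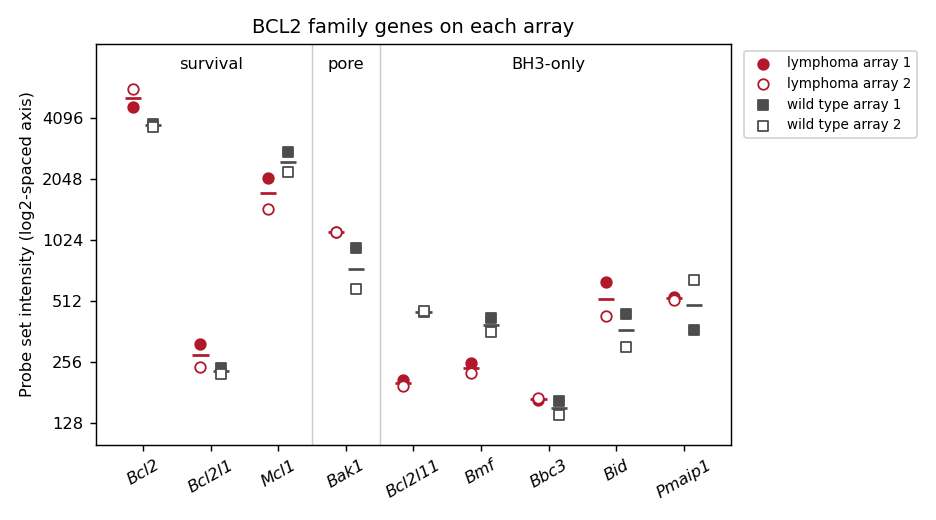
Intensity of each measured BCL2 family gene (vertical axis, linear intensity on a log2-spaced axis) on the 2 lymphoma arrays (red circles) and the 2 wild type arrays (grey squares), grouped by role. Short lines are geometric means. Bcl2l11 shows the widest gap between the groups, where the lymphoma points lie at 209 and 194 and the wild type points at 451 and 458. Levels are not comparable between genes, since each has its own probes.

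None of the 3 survival genes passed the test, and their differences had both signs. Bcl2, the founding member, named for its activation in human follicular lymphoma, had intensities of 4634 and 5722 in lymphoma, against 3829 and 3710 in wild type cells. Both lymphoma values lay above both wild type values, with the second lymphoma array highest. The log2 difference was 0.45 (SE 0.16, 95% confidence interval 0.05 to 0.85), a 1.37-fold higher signal, and it did not pass (adjusted p = 0.25). Leaving out lymphoma array 1 gave 0.60, and leaving out array 2 of that group gave 0.30.

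Bcl2l1, the gene of BCL-XL, had intensities of 314 and 243 in lymphoma, against 240 and 224 in wild type cells. The groups did not overlap, although the second lymphoma array lay only just above the first wild type array. The log2 difference was 0.25 (SE 0.20, 95% confidence interval -0.23 to 0.74, adjusted p = 0.68). Without lymphoma array 2 it was 0.44, and with array 1 left out instead it was 0.07.

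Mcl1, which encodes a short-lived survival protein on which T cells depend, had a difference of the opposite sign. It had intensities of 2081 and 1456 in lymphoma, against 2770 and 2228 in wild type cells. Both lymphoma values were the lower ones, and the first array was the higher one in each group. The log2 difference was -0.51 (SE 0.23, 95% confidence interval -1.07 to 0.05), or 1.43-fold lower, with an adjusted p of 0.37. It became -0.77 when lymphoma array 1 was left out, and -0.26 when array 2 was.

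Of the pore-forming pair, Bak1 was measured. Its intensities were 1120 and 1125 in lymphoma, against 931 and 585 in wild type cells. The lymphoma arrays were nearly equal and both lay above the wild type arrays, which were 0.67 apart on the log2 scale. The log2 difference was 0.60 (SE 0.25, 95% confidence interval -0.01 to 1.22, adjusted p = 0.33), and it was 0.94 when wild type array 1 was left out, against 0.27 when array 2 was.

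Among the 5 BH3-only genes, 1 fell, none rose and 4 did not pass. Bcl2l11 had intensities of 209 and 194 in lymphoma, against 451 and 458 in wild type cells. It averaged 7.66 ± 0.08 in lymphoma and 8.83 ± 0.02 in wild type cells on the log2 scale (SD, n = 2 each). The gap between the groups was larger than the spread within either, and the 95% confidence interval of the difference was -1.59 to -0.75. Leaving out 1 array at a time moved the difference between -1.23 and -1.12. The call was lost with either wild type array left out (adjusted p = 0.18 and 0.17 in limma), settings in which no gene on the array passed. It was also lost when all 35556 probe sets were tested (adjusted p = 0.058).

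Bmf encodes a BH3-only protein that is held at the actin cytoskeleton in healthy cells. Its intensities were 254 and 226 in lymphoma, against 424 and 360 in wild type cells. Both lymphoma values lay below both wild type values. The log2 difference was -0.71 (SE 0.19, 95% confidence interval -1.16 to -0.25), a 1.63-fold lower signal, which did not pass (adjusted p = 0.12). Over 14 alternative settings its adjusted p lay between 0.071 and 0.45.

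Bbc3, the gene of the p53 target PUMA, had 167 and 171 in lymphoma, against 164 and 141 in wild type cells. The groups did not overlap, but the first wild type array was within 3 units of the first lymphoma array. The 95% confidence interval of its log2 difference was -0.28 to 0.58.

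Bid, whose protein links death receptors to mitochondria once a caspase has cut it, had 635 and 431 in lymphoma, against 444 and 305 in wild type cells. The groups overlapped, and in each the first array was the higher one. The log2 difference was 0.51 (SE 0.28, 95% confidence interval -0.17 to 1.19, adjusted p = 0.50). It was 0.23 without lymphoma array 1 and 0.79 without array 2 of that group, and 0.78 without wild type array 1 and 0.24 without array 2 of that group. Pmaip1 encodes NOXA, a selective partner of MCL1. It had 535 and 521 in lymphoma, against 370 and 653 in wild type cells, so both lymphoma values lay between the wild type values. The log2 difference of 0.10 (SE 0.29, adjusted p = 0.93) became -0.31 when wild type array 1 was left out, and 0.51 when array 2 was.

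**Figure D2:**
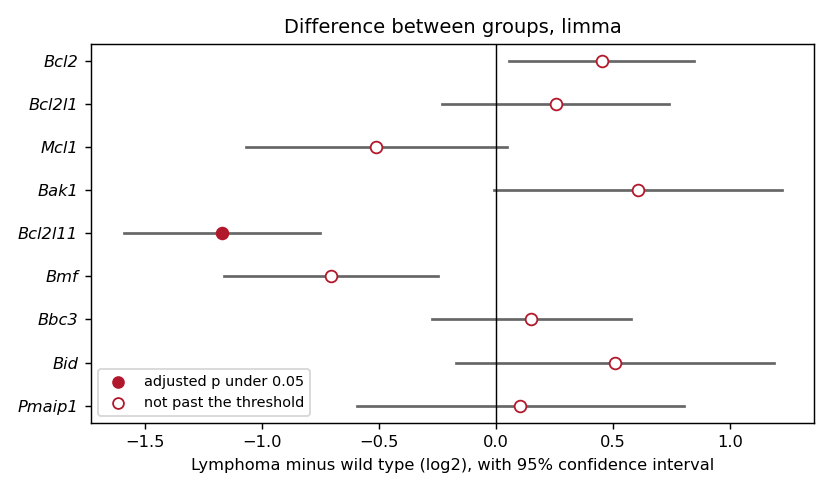
Log2 difference of lymphoma minus wild type for each gene (points) with its 95% confidence interval from limma (lines), which is not adjusted for the number of genes. Bcl2l11 (filled) passed the adjusted threshold at -1.17, and the intervals of Bmf and Bcl2 also leave out 0.

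Groups failed to overlap for 7 of the 9 genes, with Bcl2, Bcl2l1, Bak1 and Bbc3 higher and Bcl2l11, Bmf and Mcl1 lower in lymphoma. With 2 arrays a group this is common, and it held for 44.1% of all genes. The median absolute log2 difference was 0.51 over the 9 members and 0.19 over all genes. These values were not matched for level, and the members lay between percentiles 49.6 (Bbc3) and 99.4 (Bcl2) of mean level. The smallest absolute difference among the 852 called genes was 0.81, so differences of the size seen for Bmf, Bak1, Mcl1, Bid and Bcl2 were not called for any gene on these arrays.

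A difference between log2 levels taken within an array does not depend on how that array was scaled. The mean log2 level of the 3 survival genes minus that of the 6 death genes was 1.90 and 1.85 in lymphoma, against 1.73 and 1.72 in wild type cells. The difference between the group means was 0.15, with no test made. Several genes enter this higher gap in lymphoma, Bcl2 with its difference of 0.45 among them, and the share of each was not tested. Bcl2l11 had the largest difference in size of the 9, at -1.17. Bmf, at -0.71, was the only other death gene with a negative difference. Bcl2 and Mcl1 had differences of opposite sign, as had Bak1 and Bid on one side and Bcl2l11 and Bmf on the other.

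**Figure D3:**
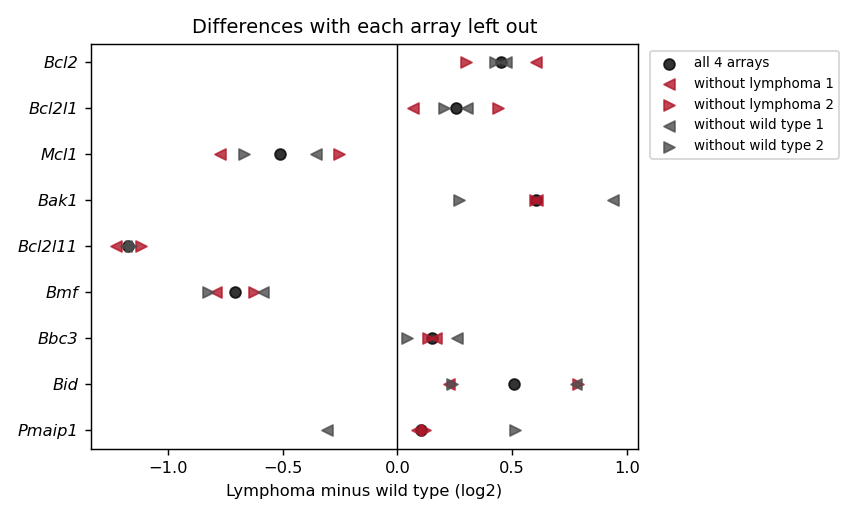
Log2 difference of lymphoma minus wild type with all 4 arrays (black) and with each lymphoma (red) or wild type (grey) array left out. Bcl2l11 stays between -1.23 and -1.12, while Pmaip1 lies on both sides of 0, at -0.31 with wild type array 1 left out and at 0.51 with array 2 left out.

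Marker genes of some other cell types differed between the groups, and their values stand beside all of these. Cd4 had 5839 and 7134 in lymphoma, against 4552 and 5153 in wild type cells, and the 3 Cd3 chains had a mean log2 difference of 0.48, with none of these 4 genes called. Of 7 measured T cell markers 1 fell, Thy1, with 884 and 980 in lymphoma, against 3408 and 2202 in wild type cells (log2 difference -1.56, SE 0.24, adjusted p = 0.023), and the other 6 did not pass. Among these 6, Cd5 had a log2 difference of -0.92 (adjusted p = 0.11) and Cd6 one of -0.86 (adjusted p = 0.35), so the T cell markers had differences of both signs. Of 7 measured B cell markers 5 fell and none rose, and their summed intensity was 3002 and 2503 in lymphoma, against 17268 and 11682 in wild type cells. Of 8 macrophage and monocyte markers 6 fell and none rose, with sums of 1732 and 2714 in lymphoma, against 7028 and 7688 in wild type cells. Of 7 dendritic cell markers 6 fell and none rose, with sums of 731 and 756 in lymphoma, against 5008 and 4184 in wild type cells. Of 4 plasma cell markers 1 fell, none rose and 1 had a positive difference. No marker of 4 for NK cells, 4 for neutrophils, 2 for CD8 T cells or 1 for erythroid cells was called. Positive differences were seen for all 4 neutrophil markers and 1 of the 4 NK cell markers, and both CD8 T cell markers had negative ones. Of 7 cell division genes 5 rose and none fell, with sums of 12006 and 8659 in lymphoma, against 4861 and 3778 in wild type cells. No marker was listed at 0, and no detection calls were used. Such cells are known to express BCL2 family genes too, and their part in the differences was not tested. In bulk RNA, fewer cells of a type and less RNA per cell cannot be told apart.

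Other genes of the family and of its pathway were read from lists chosen with earlier results of these data known. Of 13 further BCL2 family genes, 1 rose and none fell, with a median log2 difference of 0.13. The riser was Bnip3, a mitochondrial BH3-like protein of mitophagy that is induced by low oxygen. It had 561 and 613 in lymphoma, against 186 and 142 in wild type cells, a difference of 1.85 (SE 0.21, 3.60-fold, adjusted p = 0.0083). It did not pass with either wild type array left out.

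Downstream of the mitochondria, of 18 genes of the apoptosome, the caspases and their inhibitors, 1 rose and none fell, with a median of 0.26. Apaf1, the scaffold on which released cytochrome c assembles the apoptosome, had 1128 and 1439 in lymphoma, against 541 and 655 in wild type cells. Its difference of 1.10 (SE 0.21, adjusted p = 0.044) had the opposite sign to that of Bcl2l11. The call was lost under quantile normalization (0.085), with all probe sets tested (0.098) and without wild type array 1 (0.30) or 2 (0.20).

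None of 14 death receptor genes passed, and the median was 0.29. Positive differences were seen for 13 of them, against 43.8% of all genes, and this count was not tested. They were also seen for 6 of the 9 members, 10 of 13 further BCL2 family genes and 13 of 18 apoptosome and caspase genes. In the remaining lists they were seen for 9 of 16 p53 pathway genes and 9 of 16 upstream transcription factors. The cytokine receptor and kinase list had 7 of 12, and the list for BIM or MCL1 protein 7 of 10. The smallest adjusted p-values were those of the tumour necrosis factor receptor Tnfrsf1a (-0.81, adjusted p = 0.067) and of Mlkl, the executor of necroptosis (1.11, adjusted p = 0.072). Tnfrsf1a had 279 and 307 in lymphoma, against 522 and 505 in wild type cells, and Mlkl had 212 and 135 in lymphoma, against 75.0 and 81.6 in wild type cells. Without lymphoma array 2 the differences were -0.88 for Tnfrsf1a and 1.44 for Mlkl, and without lymphoma array 1 they were -0.74 and 0.78. Leaving out wild type array 1 gave -0.79 and 1.05, and leaving out array 2 of that group gave -0.83 and 1.17. Mlkl passed in limma under quantile normalization (adjusted p = 0.0496) and a robust variance trend (adjusted p = 0.045).

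Of 16 genes of the p53 pathway, 2 rose and 1 fell, with a median of 0.16. Perp, a membrane protein of apoptosis and cell adhesion, had 211 and 395 in lymphoma, against 60.3 and 73.8 in wild type cells, a difference of 2.11 (adjusted p = 0.020), while Ei24, an endoplasmic reticulum protein, differed by 1.25 (adjusted p = 0.042). Sesn1, a stress protein that restrains growth signalling, fell by 1.34 on the log2 scale (adjusted p = 0.024). All 3 calls were lost with all probe sets tested or with either wild type array left out.

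Of 12 genes of survival cytokine receptors and kinases, 2 fell and none rose, with a median of 0.09. Pik3ip1, an inhibitor of phosphoinositide 3-kinase, had 230 and 280 in lymphoma, against 604 and 701 in wild type cells, a difference of -1.36 (adjusted p = 0.019). The interleukin 4 receptor chain Il4ra differed by -0.95 (adjusted p = 0.038). Both calls were lost with all probe sets tested or with either wild type array left out.

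None of 16 upstream transcription factors passed, with a median of 0.06. Foxo1 had 1035 and 1488 in lymphoma, against 2294 and 2043 in wild type cells, a difference of -0.80 (SE 0.22, adjusted p = 0.13). The cell cycle factor E2f1 differed by 0.58 (adjusted p = 0.23). Foxo3, singled out after its values were seen, had 359 and 533 in lymphoma, against 725 and 639 in wild type cells, a difference of -0.64 (adjusted p = 0.27). Foxo4, the other listed FOXO gene, had 188 and 243 in lymphoma, against 258 and 217 in wild type cells, and these groups overlapped. Its difference was -0.15 (adjusted p = 0.86 in limma). Foxo1 and Foxo3 were lower on both lymphoma arrays, the arrays on which Bcl2l11 was lower, and any link between these genes was not tested. Without lymphoma array 2 the differences were -1.06 for Foxo1 and -0.92 for Foxo3, and without lymphoma array 1 they were -0.54 and -0.35. Leaving out wild type array 1 gave -0.72 and -0.55, and leaving out array 2 of that group gave -0.89 and -0.73. Among 10 genes that control BIM or MCL1 protein, none passed, and the smallest adjusted p-values were those of the dynein light chain Dynll2 (0.79, adjusted p = 0.10) and of Cdk5 (0.34, adjusted p = 0.49).

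**Figure D4:**
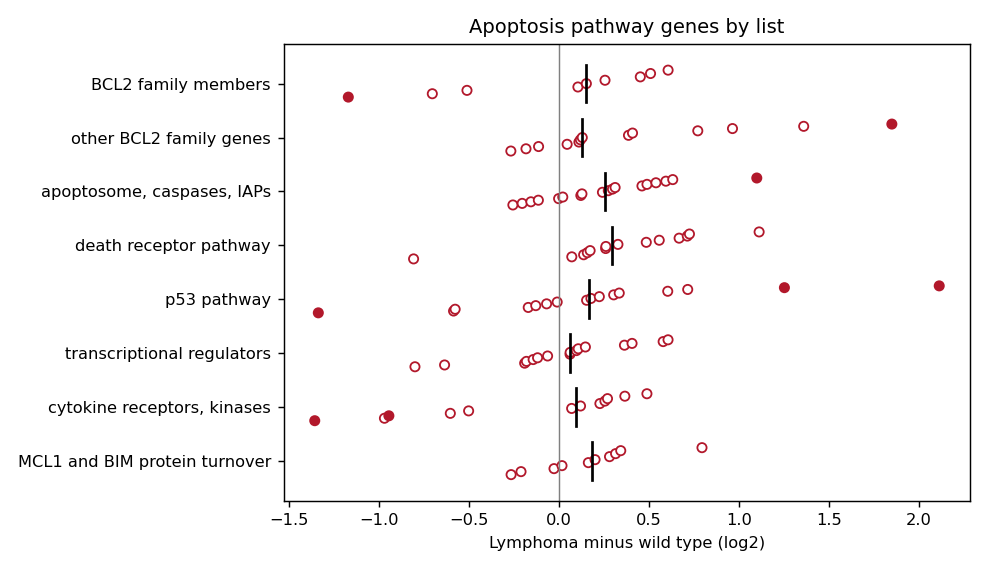
Log2 difference of lymphoma minus wild type for each measured gene of the BCL2 family members and of 7 pathway lists (points, filled where the adjusted p was under 0.05), with the median of each list (black lines). List medians lie between 0.06 and 0.29, and the called genes are Bcl2l11, Bnip3, Apaf1, Perp, Ei24, Sesn1, Pik3ip1 and Il4ra.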

How the data were processed

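Each array has 1 linear intensity value per probe set, as the authors deposited it. The submitters' processing notes name Affymetrix Expression Console as the software. The version, summarisation, background correction and normalization were not given in the sources used here. All 35556 values of each array were above 0, with array medians between 130 and 142. The number of arrays limits the precision.

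The log2 of each value was taken. GEO's platform annotation gave 1 symbol to 21789 probe sets, several to 1621 and none was listed for 12146. For genes with several probe sets, the one with the highest mean log2 over the 4 arrays was used. The fit in limma 3.58.1 (R 4.3.3) had group as its only term and a variance trend, with 2 residual and 4.24 prior degrees of freedom and a two-sided test. The procedure was tested on simulated data whose noise was drawn from limma's own fitted variance model. An earlier version that used the fitted gene variances as the true ones called more unchanged genes and was replaced, so the test kept is one whose noise matches the assumptions of the fit. In the test kept, most genes given a change of 1 log2 unit were not called, while most given 2 log2 units were. The earlier version called more of the changed genes at both sizes. A change of 1 log2 unit may therefore go uncalled, and a gene that did not pass was not shown to be unchanged. Among the members, the 95% confidence intervals of Bcl2, Bcl2l1, Bbc3 and Pmaip1 did not reach 1 log2 unit in either direction. No exact permutation test was used, since 2 against 2 arrays cannot reach the threshold.

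The members and lists were chosen with earlier results of these data known. Named genes are all members, Tet2 and, from each list, up to 4 called genes by size, or the 2 with the smallest adjusted p where none was called. Foxo3, Foxo4, Il7r, Il2rb, Bcl2l13, Bcl2l14, Cd4, Cd5 and Cd6 fall outside this rule and were chosen after their values were seen. Listed genes without a probe set of a single symbol were not analysed here. The 14 alternatives covered normalization, dim probe sets, a pseudocount, the variance trend, probe set choice, the replicate number, the threshold and leaving out each array. Promoter motifs were chosen after earlier searches of the same windows. Figures were drawn with matplotlib 3.10.9.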

Additional observations from a re-analysis of the deposited data

How the results depend on the processing

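The fall of Bcl2l11 kept its direction under all 14 alternatives (log2 difference -1.23 to -1.12 with single arrays left out) and its call under 11 (adjusted p 0.0033 to 0.18 over the 14, limma). The count of members called lower was 1, became 0 with all probe sets tested, and lay between 0 and 1 with single arrays left out. No member was called higher under any alternative. All called genes of the pathway lists kept their direction. Of the members, Pmaip1 alone changed sign, without wild type array 1, with a range of -0.31 to 0.51 over left-out arrays. Over all genes, 362 were higher and 490 lower. With all probe sets tested these counts were 138 and 301, and at an adjusted p under 0.1 there were 665 higher and 692 lower. With single arrays left out they lay between 0 and 1057 for higher and between 0 and 843 for lower genes, with 0 calls when either wild type array was absent. There the spread comes from the lymphoma pair alone, and at an unadjusted p under 0.05 there were 1418 higher and 890 lower genes without wild type array 1, and 929 and 1120 without wild type array 2. With a lymphoma array left out, the remaining one is assumed to vary like the wild type pair. The labels share only replicate numbers, whose deviations correlated at r = 0.23 across genes. With the replicate number as a block (replicate block), Bcl2l11 had an adjusted p of 0.027, with 1 member lower and 429 genes higher and 555 lower. Without detection calls, dim signals may understate differences.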

Other observations

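Il7r, the receptor chain for the cytokine that maintains BCL2 in resting T cells, differed more between the lymphoma arrays than between the groups. It was singled out after its values were seen. It had 4299 and 959 in lymphoma, against 4043 and 3922 in wild type cells, so only the second lymphoma array was low (log2 difference -0.97, SE 0.63, adjusted p = 0.59 in limma). That array had the highest Bcl2 value of the 4, 5722. Its Bcl2l11 value was the lowest, 194, close to the 209 of lymphoma array 1. The log2 gap of 0.11 between these Bcl2l11 values was below the median gap of 0.21 over all genes. The following 3 genes were likewise singled out after their values were seen. The receptor chain Il2rb had its highest value there too, with 3491 and 5313 in lymphoma, against 3241 and 2914 in wild type cells (adjusted p = 0.39). Bcl2l14 had 500 and 230 in lymphoma, against 136 and 129 in wild type cells (1.36, adjusted p = 0.12), and Bcl2l13 had 852 and 1322 in lymphoma, against 529 and 560 in wild type cells (0.96, adjusted p = 0.11). Both lymphoma values of each lay above both wild type values.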
